A study of Mus musculus with 27 samples.

Results

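The genes described here are 10 imprinted genes, Igf2, H19, Meg3, Rian, Dlk1, Peg3, Plagl1, Ndn, Grb10 and Mest, followed through mouse fetal brain development. They were picked by gene symbol from a table of read counts that lists 55416 genes, and all 10 were found and passed the filter on low counts in each comparison. The RNA came from whole fetal brains and gave 27 libraries, 3 for each of 3 strains on each of the gestational days 12, 15 and 17 (d12, d15 and d17). The strains were AKR/J, a short-lived inbred strain, C57BL/6J, a long-lived inbred strain, and B6.Cg-Cav1tm1Mls/J, called Cav1-null here, a congenic strain that carries a targeted deletion of the caveolin gene Cav1 in every cell on the C57BL/6J background. The mice that were mated were 8 weeks old, the day of the vaginal plug was day 1, and no group received a treatment. All 27 fetuses are labelled female, and the libraries were made from RNA selected by its poly(A) tail. The 3 libraries of a group are called biological replicates in the study's methods, and the p-values below measure the spread between them. The methods do not say which fetuses shared a dam, so a difference between groups cannot be told apart from one between litters. The comparisons asked how each gene changed from d12 to d15 and from d15 to d17 within a strain, how AKR/J and Cav1-null differed from C57BL/6J on each day, and whether strains differed in the size of the change from day to day.

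An imprinted gene is transcribed mainly from the allele inherited from a single parent, and the choice is carried by DNA methylation that is laid down in the egg or the sperm and copied at each cell division. Imprinted genes are known for their part in fetal growth and, in the brain, in neuronal differentiation and in behavior after birth. Paternally expressed genes such as Igf2, Dlk1, Mest, Peg3 and Plagl1 are often described as promoters of growth, and maternally expressed genes such as H19 and Grb10 as restraints on it. Within an inbred strain both alleles carry the same sequence, so the read counts cannot tell the maternal copy from the paternal copy. The brain was homogenized whole, so that fewer cells of a type and less RNA per cell cannot be told apart in any of the values below.

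Expression is given as CPM, the reads of a gene per 1000000 reads after scaling by the TMM method, and libraries are named by strain, day and replicate. The depth was 26363697 to 39759702 reads counted on genes, with a median of 29700746. As a check of the strain labels, Cav1 had at most 0.509 CPM in the 9 Cav1-null libraries and at least 9.25 CPM in the other 18. The sex labels were checked on Xist, which is transcribed from the inactive X chromosome of females and lay between 2434 and 6350.3 CPM in 25 libraries. The library labelled Cav1-null d12 replicate 2 had 3.70 CPM of Xist and 429 CPM summed over 4 genes of the Y chromosome, against its label. The library labelled AKR/J d15 replicate 3 had 3.29 CPM of Xist and 0 CPM of these 4 genes, and AKR/J d12 replicate 1 had 50.7 CPM of them. In 4 libraries, the summed level of 12 marker genes of connective tissue and meninges was more than 3 times the median of their group. These were AKR/J d15 replicate 2 (1487 CPM), C57BL/6J d15 replicate 1 (5318 CPM), C57BL/6J d17 replicate 1 (1212 CPM) and Cav1-null d12 replicate 3 (1307 CPM). In the d12 libraries of AKR/J, 10 erythroid markers summed to between 33059 and 197708 CPM and 8 neuronal markers to between 1728 and 2232 CPM, whereas the neuronal sum was at least 3310.4 CPM in the d12 libraries of the other strains. These erythroid-rich libraries are all 3 of their group, so no AKR/J value on d12 can be given without them. Their scaling factors by TMM were 0.679, 1.07 and 0.688 in replicates 1, 2 and 3, so the CPM of this group depend on the scaling. With TMM and with library sizes alone the group means were 739 and 564 CPM for H19, 1033 and 794 CPM for Rian, and 151 and 116 CPM for Ndn.

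Meg3 and Rian are long noncoding RNAs transcribed from the maternal allele of the Dlk1-Dio3 cluster on chromosome 12, which also encodes Dlk1. Meg3 (ENSMUSG00000021268) lies on the forward strand of GRCm39 at chr12:109506877-109538165. Per kilobase of exon it was the most abundant member, with a median over the 27 libraries of 189 CPM per kb, and Ndn (73.3), H19 (68.3), Rian (33.1), Peg3 (26.7), Grb10 (22.9), Mest (21.8), Plagl1 (16.3), Dlk1 (10.02) and Igf2 (1.5) followed. The ranges over the libraries overlapped between every pair of neighbours in this order, for example 44.3 to 466 CPM per kb for Meg3 and 24.7 to 132 for Ndn. The order is that of medians over all days and strains and does not hold in every group. In AKR/J on d12, H19 was above Meg3 per kilobase, with means of 739 CPM over 2848 exon bases and 1007 CPM over 19306. The plot of levels by day shows the 27 values of each member.

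**Figure D1:**
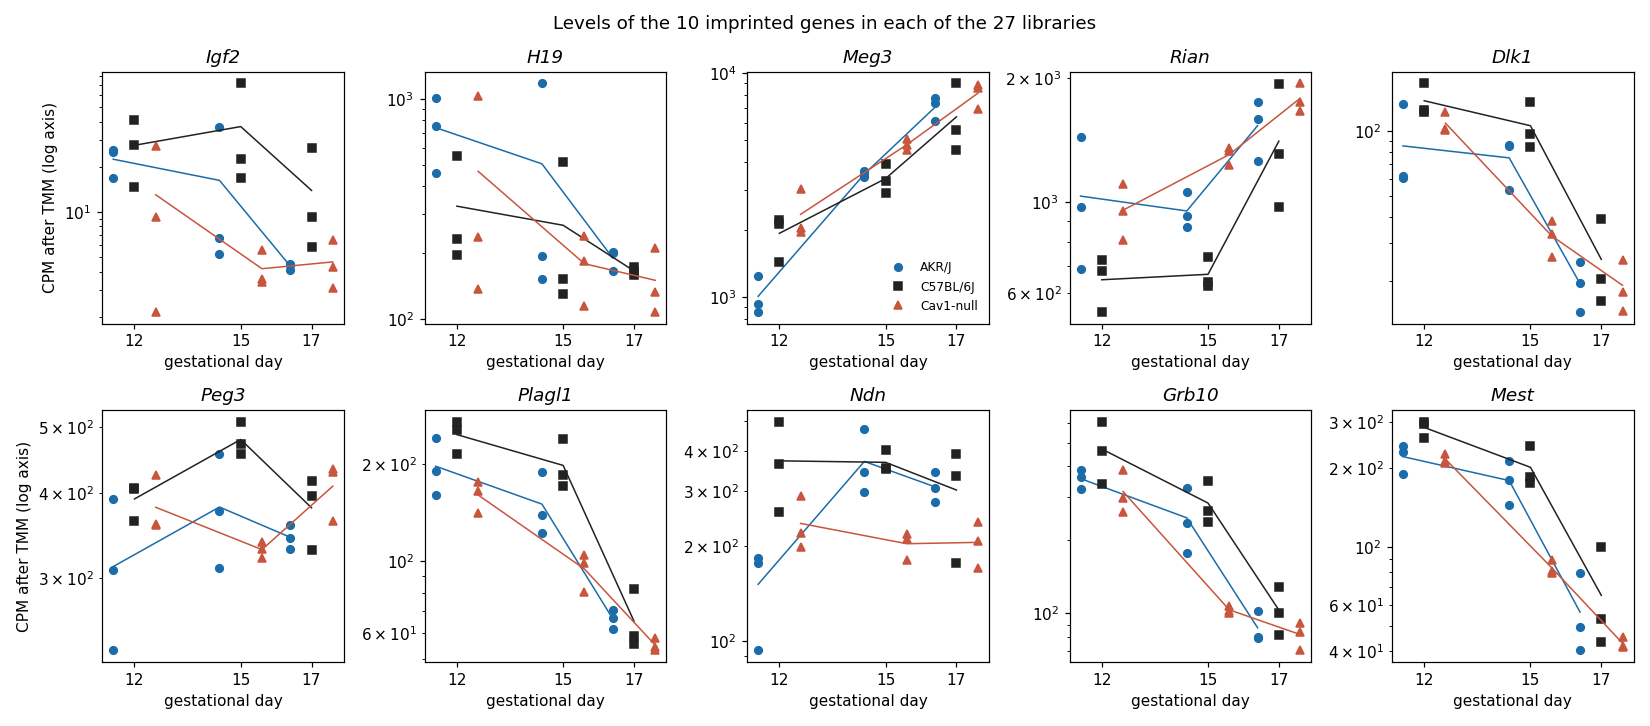
Expression of the 10 imprinted genes by gestational day, in CPM on a log axis, with 1 panel per gene and 1 point per library. Colours and shapes mark the strains, which are shifted sideways around each day, and lines join the means of the 3 libraries of a group. Meg3 is highest on d17 in all 3 strains, Dlk1, Plagl1, Grb10 and Mest are lowest on d17, and Igf2 and H19 have single libraries far above the others of their group.

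Meg3 was higher on each later day in all 3 strains. In AKR/J it had 928, 1237 and 855 CPM on d12, 3549, 3649 and 3418 CPM on d15, and 6091, 7309.5 and 7732 CPM on d17. In C57BL/6J the values were 2209, 2128 and 1434 CPM on d12, 2899.7, 3304 and 3929 CPM on d15, and 4529, 8993 and 5589 CPM on d17. In Cav1-null mice they were 1943, 2039 and 3035 CPM on d12, 4777, 5063 and 4518 CPM on d15, and 8546, 8858 and 6925 CPM on d17. The libraries of successive days did not overlap in any strain. A gene was called when the Benjamini-Hochberg adjusted p of edgeR's quasi-likelihood test, adjusted over all genes tested, was under 0.05. In AKR/J, 28.9% of all genes tested were called between d12 and d15 and 22.1% between d15 and d17, and Meg3 was called in both phases, with log2 fold changes of 1.77 (SE 0.29, edgeR adjusted p = 0.00437) and then 1.01 (SE 0.13, edgeR adjusted p = 0.00195). Between d12 and d15 of AKR/J the erythroid sum also went from a range of 33059 to 197708 CPM to one of 2007 to 3066 CPM, and the neuronal sum from 1728 to 2232 CPM to 3793 to 5565 CPM, and their part in the Meg3 change was not tested. In Cav1-null mice, where 23.4% of genes were called from d12 to d15 and 27.3% from d15 to d17, the log2 fold changes of Meg3 were 1.03 (SE 0.18, edgeR adjusted p = 0.00514) and 0.76 (SE 0.10, edgeR adjusted p = 0.000108). In C57BL/6J the early rise of Meg3 was called at 0.76 (SE 0.20, edgeR adjusted p = 0.046), where 14.9% of genes were called. That call was lost without C57BL/6J d12 replicate 1 and without any of the 3 d15 libraries, for example at 0.89 (edgeR adjusted p = 0.0985) without C57BL/6J d15 replicate 1. The late difference of 0.97 (SE 0.28, edgeR adjusted p = 0.0618) was not called in C57BL/6J, where 13.0% of genes were, and without C57BL/6J d17 replicate 1 it was 1.16 (edgeR adjusted p = 0.00956). It was called by DESeq2 (0.93, DESeq2 adjusted p = 0.0043), and by edgeR with library sizes alone, in the model of all 27 libraries and without the high connective tissue libraries (edgeR adjusted p = 0.0423, 0.00702 and 0.0401).

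Rian (ENSMUSG00000097451) lies downstream of Meg3 at chr12:109570242-109628150 and is the host of many small nucleolar RNAs. It had 1437, 688 and 974 CPM in AKR/J on d12, 869, 1059 and 924 CPM on d15, and 1258, 1591 and 1747 CPM on d17. The C57BL/6J libraries had 721, 539 and 680.3 CPM on d12, 625, 639 and 736 CPM on d15, and 974, 1929 and 1311 CPM on d17. The Cav1-null libraries had 809, 950.5 and 1105 CPM on d12, 1229.8, 1330.4 and 1349 CPM on d15, and 1942, 1748 and 1667 CPM on d17. Rian rose in the late phase in all 3 strains, with no overlap between d15 and d17, and its values overlapped between d12 and d15 in AKR/J and C57BL/6J. The late log2 fold changes were 0.70 (SE 0.14, edgeR adjusted p = 0.0116) in AKR/J, 1.13 (SE 0.25, edgeR adjusted p = 0.0299) in C57BL/6J and 0.46 (SE 0.08, edgeR adjusted p = 0.00117) in the Cav1-null strain. The AKR/J call was lost without AKR/J d17 replicate 2 or 3, with edgeR adjusted p-values of 0.065 and 0.0631. The early rise of Rian was called in Cav1-null mice (0.45, SE 0.13, edgeR adjusted p = 0.0374), and this call was lost when any of the 6 libraries but Cav1-null d12 replicate 3 was left out, with edgeR adjusted p-values of 0.072 to 0.135. The early change of Cav1-null mice differed from that of C57BL/6J by 0.43 (SE 0.20), which was not called (edgeR adjusted p = 0.341). The reads of Rian and of the small RNAs inside its exons cannot be told apart by gene counts, and how the counting assigned them is not given in the sources used here.

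Dlk1 (ENSMUSG00000040856, chr12:109418749-109429262), a transmembrane relative of the Notch ligands, is the paternally expressed protein-coding gene of the same cluster. Its AKR/J values were 133, 61.9 and 60.4 CPM on d12, 53.1, 85.4 and 86.5 CPM on d15, and 24.5, 19.7 and 14.4 CPM on d17. The C57BL/6J values were 167, 126 and 122 CPM on d12, 137, 84.3 and 96.4 CPM on d15, and 39.1, 16.2 and 20.6 CPM on d17. The Cav1-null values were 101, 123 and 102 CPM on d12, 33.2, 38.3 and 26 CPM on d15, and 17.8, 25.0 and 14.6 CPM on d17. In the late phase Dlk1 moved against the noncoding RNAs of its cluster, and every d17 library was below every d15 library of its strain. Between d15 and d17 it fell 3.80-fold in AKR/J (log2 fold change -1.93, SE 0.23, edgeR adjusted p = 0.00158), 4.0-fold in C57BL/6J (-2.0, SE 0.36, edgeR adjusted p = 0.016) and 1.69-fold in Cav1-null mice (-0.76, SE 0.17, edgeR adjusted p = 0.00553). Between d12 and d15 it fell 3.34-fold in Cav1-null mice (-1.74, SE 0.14, edgeR adjusted p = 0.00021), whereas the log2 differences of -0.23 (SE 0.34) in AKR/J and -0.44 (SE 0.22) in C57BL/6J were not called. The difference between the Cav1-null and the C57BL/6J early change was -1.34 (SE 0.28) and did not pass adjustment over all genes (edgeR adjusted p = 0.163), but was called by DESeq2 (-1.35, DESeq2 adjusted p = 0.00164), without the filter on low counts (-1.35, edgeR adjusted p = 0.0352) and without C57BL/6J d12 replicate 2 (-1.26, edgeR adjusted p = 0.0313).

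Grb10 (ENSMUSG00000020176) encodes an adaptor protein that binds the insulin and insulin-like growth factor (IGF) receptors and restrains growth. It lies on the reverse strand at chr11:11880498-11988683. In AKR/J it had 322, 385 and 361 CPM on d12, 177, 326 and 235 CPM on d15, and 103, 80.3 and 79.2 CPM on d17. In C57BL/6J it had 339, 464 and 609 CPM on d12, 349, 264 and 236 CPM on d15, and 128, 81.3 and 99.9 CPM on d17. In Cav1-null mice it had 297, 261 and 388 CPM on d12, but already 100.2, 108 and 102 CPM on d15, and 91.2, 84.2 and 70.5 CPM on d17. The d15 values of Cav1-null mice lay within the d17 values of the other strains, 79.2 to 128 CPM. In AKR/J and C57BL/6J the called fall came in the late phase, with log2 fold changes of -1.48 (SE 0.22, edgeR adjusted p = 0.00282) and -1.39 (SE 0.23, edgeR adjusted p = 0.0135). The early differences of -0.58 (SE 0.25, edgeR adjusted p = 0.113) in AKR/J and -0.78 (SE 0.25, edgeR adjusted p = 0.0678) in C57BL/6J were not called, although DESeq2 called the latter (-0.75, DESeq2 adjusted p = 0.0143). In Cav1-null mice Grb10 fell by 1.61 (SE 0.15, edgeR adjusted p = 0.000338) on the log2 scale up to d15 and by 0.33 (SE 0.09, edgeR adjusted p = 0.0136) after it, and the later call was lost without Cav1-null d15 replicate 2 or d17 replicate 3 (edgeR adjusted p = 0.0734 and 0.0759). The early change differed from that of C57BL/6J by -0.85 (SE 0.30, edgeR adjusted p = 0.248). The late change of Cav1-null mice differed from that of C57BL/6J by 1.03 (SE 0.25, edgeR adjusted p = 0.0714), and without C57BL/6J d17 replicate 1 by 1.31 (edgeR adjusted p = 0.000945).

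Mest and Plagl1 also fell in the late phase in all 3 strains and in the early phase in Cav1-null mice. Mest (ENSMUSG00000051855, chr6:30723546-30752058), a paternally expressed gene with similarity to hydrolases, had 243, 230.3 and 189.7 CPM in AKR/J on d12, 145, 213 and 179 CPM on d15, and 79.2, 49.6 and 40.2 CPM on d17. In C57BL/6J it had 301, 261 and 296 CPM, then 244, 176 and 184 CPM, then 99.5, 43.3 and 53.2 CPM. In Cav1-null mice it had 226, 213 and 209 CPM, then 89.0, 79.6 and 81.2 CPM, then 41.6, 45.3 and 41.7 CPM, and no day overlapped another. The late log2 fold changes of Mest were -1.65 (SE 0.25, edgeR adjusted p = 0.00305) in AKR/J, -1.56 (SE 0.32, edgeR adjusted p = 0.025) in C57BL/6J and -0.95 (SE 0.08, edgeR adjusted p = 2.62e-06) in Cav1-null mice. The early fall was called in Cav1-null mice at -1.37 (SE 0.08, edgeR adjusted p = 5.85e-05), and the early difference of -0.56 (SE 0.16) in C57BL/6J, where d12 and d15 did not overlap, was not called (edgeR adjusted p = 0.0575), although DESeq2 called it (-0.52, DESeq2 adjusted p = 0.0218). The Mest exons share 3850 bases with Copg2 on the opposite strand, and whether the counting used strand is not given in the sources used here.

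Plagl1 (ENSMUSG00000019817, chr10:12936248-13007438), a zinc finger transcription factor that is known to regulate other imprinted genes, had 190.1, 241 and 160.1 CPM in AKR/J on d12, 123, 189 and 139 CPM on d15, and 70.5, 67.0 and 61.8 CPM on d17. In C57BL/6J the values were 214, 271 and 255 CPM, then 239, 184 and 171 CPM, then 82.0, 55.4 and 58.6 CPM. In Cav1-null mice they were 176, 165 and 141 CPM, then 80.6, 105 and 98.6 CPM, then 58.0, 53.0 and 54.2 CPM. As for Grb10 and Mest, the Cav1-null libraries fell between every pair of successive days without overlap, and the early values of Plagl1 in the other strains overlapped. The late log2 fold changes were -1.17 (SE 0.16, edgeR adjusted p = 0.00219) in AKR/J, -1.54 (SE 0.22, edgeR adjusted p = 0.00843) in C57BL/6J and -0.78 (SE 0.09, edgeR adjusted p = 5.32e-05) in Cav1-null mice, and the early one in Cav1-null mice was -0.76 (SE 0.12, edgeR adjusted p = 0.00285). Between d15 and d17 in C57BL/6J, the calls of Dlk1 and Grb10 were lost without C57BL/6J d15 replicate 1 or 2, those of Mest and Rian without any of the 3 d15 libraries, and all 4 and that of Plagl1 without d17 replicate 3, with edgeR adjusted p-values of 0.053 to 0.124. In these fits 0.767% to 3.79% of all genes were called in place of 13.0%, and the log2 fold changes were -1.77 to -2.15 for Dlk1, -1.21 to -1.46 for Grb10, -1.40 to -1.66 for Mest, 1.08 to 1.21 for Rian and -1.48 for Plagl1. Their signs did not change in any of the alternatives run. Summed marker levels of other cells moved over the same days. From d12 to d15 to d17 the median summed level of the cartilage markers went from 214 to 82.7 to 33.9 CPM in AKR/J, from 234 to 118 to 36.99 CPM in C57BL/6J and from 175 to 48.2 to 29.7 CPM in Cav1-null mice, and that of connective tissue from 1241 to 150.5 to 111 CPM, from 890.5 to 644 to 204 CPM and from 237 to 136 to 114 CPM. The neural progenitor sum went from 3622 to 1362 to 1597 CPM, from 2149 to 1650 to 1156 CPM and from 1664 to 1344 to 1250.1 CPM, and the choroid plexus sum was higher on d15 than on d12 in each, going from 53.9 to 375, from 268 to 503 and from 242 to 402 CPM. Of the 8 neural progenitor markers, 4, 2 and 5 were called lower in the early phase and 7, 4 and 5 in the late phase of the strains in that order. The part of these shifts in the falls of Dlk1, Grb10, Mest and Plagl1 was not tested.

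**Figure D2:**
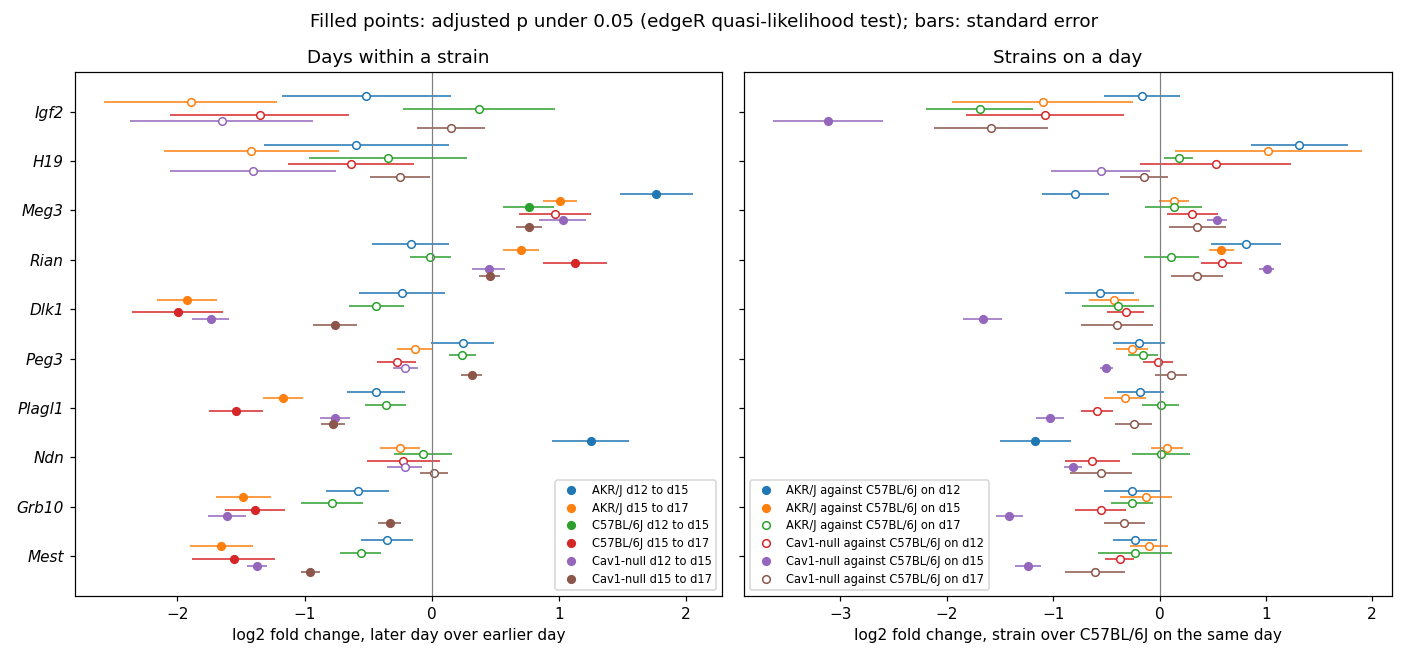
Log2 fold changes of the 10 imprinted genes between successive days within each strain and between each strain and C57BL/6J on each day, with bars of 1 standard error. Filled points passed edgeR's quasi-likelihood test at an adjusted p under 0.05. Meg3 and Rian lie above 0 and Dlk1, Plagl1, Grb10 and Mest below 0 from d15 to d17 in all 3 strains, and on d15 all members but H19 were called between Cav1-null and C57BL/6J.

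Ndn (ENSMUSG00000033585, chr7:61995473-62000010), encodes necdin, a protein of neurons that have left the cell cycle, and is paternally expressed. It had 184, 93.4 and 177 CPM in AKR/J on d12, 345, 298 and 473 CPM on d15, and 344, 305 and 277 CPM on d17. In C57BL/6J it had 497, 366 and 257 CPM, then 351, 354 and 404 CPM, then 393, 177 and 335 CPM. In Cav1-null mice it had 199, 289 and 221 CPM, then 219, 211 and 181 CPM, then 170.2, 239 and 208 CPM. The low d12 libraries of AKR/J stood apart from all others of that strain, and Ndn rose there by 1.25 on the log2 scale from d12 to d15 (SE 0.30, edgeR adjusted p = 0.017). Without AKR/J d15 replicate 3, the library with little Xist, the value was 1.06 (edgeR adjusted p = 0.0711). The summed neuronal markers in these AKR/J libraries rose with it, from a range of 1728 to 2232 CPM on d12 to 3793 to 5565 CPM on d15, and 6 of the 8 were called higher; their part in the Ndn result was not tested.

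Peg3 (ENSMUSG00000002265, chr7:6706882-6733468), a large zinc finger protein that is paternally expressed, ran from 235 to 510.0 CPM over the 27 libraries. It had 393, 309 and 235 CPM in AKR/J on d12 and 360.4, 359 and 425 CPM in Cav1-null mice on d12, and 407, 406 and 364 CPM in C57BL/6J. A single change between days was called, a rise from 321, 339.6 and 331 CPM on d15 to 434, 431 and 364 CPM on d17 in Cav1-null mice (log2 fold change 0.31, SE 0.08, edgeR adjusted p = 0.011). The same step in C57BL/6J went from 510.0, 456 and 473 CPM to 396, 416 and 329.6 CPM, a difference of -0.27 (SE 0.15) that was not called. The 2 changes differed by 0.56 (SE 0.15, edgeR adjusted p = 0.0893).

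Igf2 and H19 are neighbours on chromosome 7 and are imprinted in opposite directions from a shared control region. Igf2 (ENSMUSG00000048583, chr7:142204503-142220694) encodes the fetal growth factor IGF2, and H19 (ENSMUSG00000000031, chr7:142129262-142133957) is a noncoding RNA. In AKR/J, Igf2 had 25.7, 16.7 and 24.9 CPM on d12, 6.66, 36.7 and 5.25 CPM on d15, and 4.12, 4.41 and 4.51 CPM on d17. In C57BL/6J it had 14.6, 27.7 and 41.1 CPM, then 71.9, 16.7 and 22.4 CPM, then 26.6, 5.83 and 9.24 CPM. In Cav1-null mice it had 9.27, 2.14 and 27.6 CPM, then 3.38, 5.55 and 3.59 CPM, then 6.52, 4.31 and 3.09 CPM. In AKR/J and C57BL/6J on d15, C57BL/6J on d17 and Cav1-null mice on d12, the highest Igf2 library was the library with high connective tissue markers. The 6 changes of Igf2 between days had edgeR adjusted p-values of 0.0801 to 0.732, none of them called. The late difference in AKR/J was called without the filter on low counts (-1.93, edgeR adjusted p = 0.0151) and without AKR/J d15 replicate 3 (-2.32, edgeR adjusted p = 0.0298). Without the filter the early differences in Cav1-null mice were called for Igf2 (-1.67, edgeR adjusted p = 0.0254) and H19 (-1.43, edgeR adjusted p = 0.0282). H19 had 193, 1174 and 151 CPM in AKR/J on d15, 518, 129 and 152 CPM in C57BL/6J on d15, and 236, 137 and 1031 CPM in Cav1-null mice on d12, and the same libraries were high. The other H19 values were 1003, 461 and 753 CPM in AKR/J on d12, 231, 195 and 550.1 CPM in C57BL/6J on d12, and between 107 and 237 CPM in the remaining libraries. Without AKR/J d15 replicate 2, the fall from d12 to d15 in AKR/J was called for Igf2 (log2 fold change -1.94, edgeR adjusted p = 0.00666) and for H19 (-2.13, edgeR adjusted p = 0.0127), in place of -0.51 and -0.59. Without Cav1-null d12 replicate 3, the early differences of Igf2 and H19 in Cav1-null mice were -0.43 and -0.055 in place of -1.65 and -1.41, none of them called, and without Cav1-null d12 replicate 2, the library that goes against its sex label, that of Igf2 was called (-2.16, edgeR adjusted p = 0.0162). The late difference of Igf2 in C57BL/6J was -1.35 and not called with all libraries, and without C57BL/6J d17 replicate 1 it was called at -2.25 (edgeR adjusted p = 0.0401). Without both high connective tissue libraries, that of d15 and that of d17, it was -1.32 and called (edgeR adjusted p = 0.0254). The difference of this change between Cav1-null and C57BL/6J mice was 1.47 and not called with all libraries, 2.44 (edgeR adjusted p = 0.0239) without C57BL/6J d17 replicate 1 and 1.52 (edgeR adjusted p = 0.025) without both.

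Over the 27 libraries, Igf2 and the summed connective tissue markers had a Spearman rho of 0.89, and 0.94 when the group means were removed, and the same library was highest for both in 8 of the 9 groups. For H19 the rho with skeletal muscle markers was 0.56, or 0.81 within groups, and with connective tissue 0.68, or 0.81 within groups. Grb10 had 0.82 with connective tissue, or 0.76 within groups, and the same library was highest for both in 8 of the 9 groups. With cartilage markers the rho was 0.94 for Grb10, 0.91 for Plagl1, 0.91 for Mest and 0.86 for Dlk1. Within groups these were 0.71, 0.43, 0.54 and 0.25. The libraries of a group share their strain and day, and the rho are descriptions. In AKR/J d15 replicate 2, all 12 connective tissue markers were at their highest of the group, with a sum of 1487 CPM against 133 to 150.5 CPM, and the muscle markers summed to 105.0 CPM against 6.10 to 6.72 CPM. In C57BL/6J d17 replicate 1, where Igf2 was high at 26.6 CPM and H19 was not at 159 CPM, connective tissue summed to 1212 CPM against 109 to 204 CPM and muscle to 7.39 CPM against 7.13 to 8.31 CPM. The part of these tissues in the values of Igf2, H19, Grb10, Plagl1, Mest and Dlk1 was not tested. The Igf2 exons share 3599 bases with the gene Gm49394 on the same strand, which is listed at 0 in all libraries, and how reads of the shared bases were counted is not given in the sources used here. The Igf2 count and the reads over the Igf2 splice junction chr7:142208186-142209390 had a Spearman rho of 0.92 over the 27 libraries. Cav1-null d12 replicate 2 had 70 reads counted on Igf2 but 85 over this junction. Why the gene count was the lower was not tested, and the CPM of Igf2 may be too low.

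**Figure D3:**
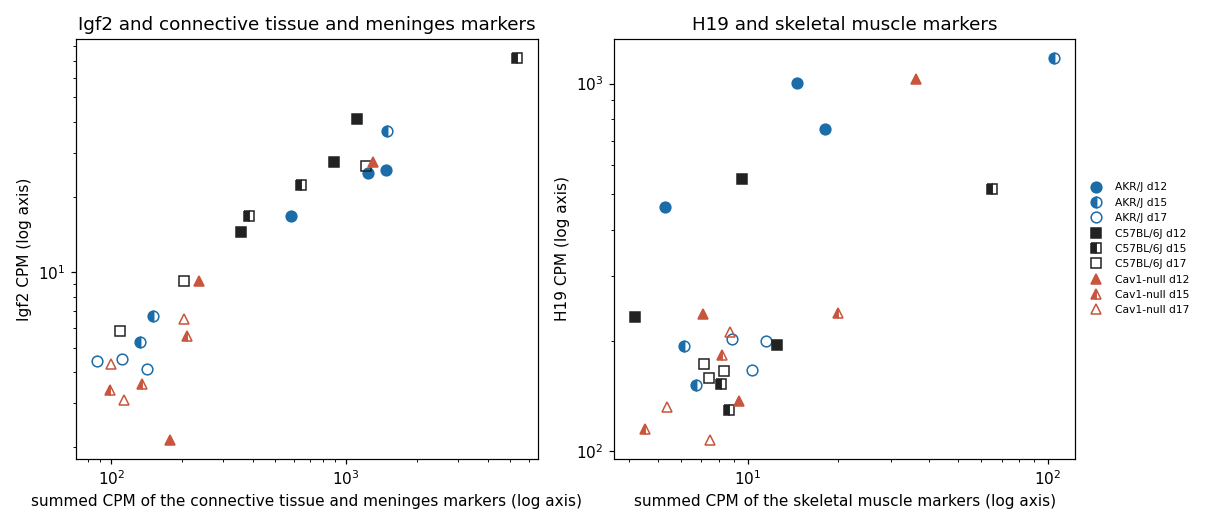
Left, Igf2 in CPM against the summed CPM of 12 connective tissue and meninges markers, and right, H19 in CPM against the summed CPM of 12 skeletal muscle markers, with 1 point per library and all axes on a log scale. Colours and shapes mark the strains, and full, left-filled and open points mark d12, d15 and d17. Igf2 follows the connective tissue sum (rho 0.89), and H19 is above 1000 CPM in AKR/J d12 replicate 1, AKR/J d15 replicate 2 and Cav1-null d12 replicate 3.

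Taking all members by comparison, 27 of the 60 changes between days were called. By phase, 2 of 10 members were called in AKR/J, 1 of 10 in C57BL/6J and 6 of 10 in Cav1-null mice between d12 and d15, beside shares of 28.9%, 14.9% and 23.4% of all genes. Between d15 and d17 the counts were 6, 5 and 7 members, beside 22.1%, 13.0% and 27.3% of all genes. The median log2 fold change of the members was -0.29, -0.20 and -1.07 from d12 to d15 and -1.29, -0.99 and -0.11 from d15 to d17 in AKR/J, C57BL/6J and the Cav1-null strain, beside medians of all genes between -0.04 and 0.03. In these fits the called falls of AKR/J and C57BL/6J lay in the late phase and those of Cav1-null mice in both, but DESeq2 also called the early falls of Grb10 and Mest in C57BL/6J, and edgeR those of Igf2 and H19 in AKR/J without AKR/J d15 replicate 2. In the model of all 27 libraries the late calls of Meg3, Rian, Dlk1, Grb10 and Peg3 in Cav1-null mice were lost, with edgeR adjusted p-values of 0.0646 to 0.481. The late call of Rian in AKR/J (edgeR adjusted p = 0.0533) and its early call in Cav1-null mice (edgeR adjusted p = 0.21) were lost there as well. Without C57BL/6J d15 replicate 1, 2 or 3 or d17 replicate 3, the late count of C57BL/6J was 1, 1, 3 or 0, beside 1.77%, 1.29%, 3.79% or 0.767% of all genes. The early count of AKR/J was 4 without AKR/J d15 replicate 2, beside 21.7% of all genes, and 1 without AKR/J d15 replicate 3, beside 12.4%. Whether the changes differ between strains was tested gene by gene with an interaction term over 12 libraries, and edgeR called 0 of 10 members in each of the 4 interactions. At an unadjusted p under 0.05 there were 2 and 0 members in the early and late interactions of AKR/J, beside 16.3% and 7.57% of all genes, and 4 and 5 in those of Cav1-null mice, beside 15.0% and 21.9%. DESeq2 called 1 and 0 members for AKR/J, beside 2.42% and 0.111% of all genes, and 3 and 3 for Cav1-null mice, beside 1.14% and 3.32%. The edgeR interactions called few genes of any kind, with 0.0711% and 0.00468% of all genes for the early and late phases of AKR/J against C57BL/6J and 0.00472% and 0.252% for Cav1-null mice. In the late phase of Cav1-null against C57BL/6J, 7 of 10 members were called when C57BL/6J d17 replicate 1 was left out, but so were 26.1% of all genes in that fit. The 7 included Dlk1 (1.76, edgeR adjusted p = 0.00204), Plagl1 (1.02, edgeR adjusted p = 0.00203) and Rian (-0.82, edgeR adjusted p = 0.0054). Leaving out all 4 libraries with high connective tissue markers, chosen after seeing the data, gave 7 of 10 members and 22.6% of all genes.

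On d15, Cav1-null and C57BL/6J mice differed in 9 of the 10 members, on a background of 58.6% of all genes called, 26.8% higher and 31.8% lower. The C57BL/6J d15 libraries were the deepest of the 27, with 37191332 to 39759702 reads against 26846313 to 29090743 in Cav1-null d15. Their scaling factors by TMM were 0.897 to 0.931 against 1.06 to 1.07. The part of depth in this background was not tested. Igf2 was 8.67-fold lower in Cav1-null mice (log2 fold change -3.12, SE 0.51, edgeR adjusted p = 0.000437). Without C57BL/6J d15 replicate 1, the library with the most connective tissue RNA, Igf2 was 4.53-fold lower (-2.18, edgeR adjusted p = 3.71e-06). Dlk1 was 3.17-fold lower (-1.66, SE 0.19, edgeR adjusted p = 2.66e-05), Grb10 2.66-fold lower (-1.41, SE 0.13, edgeR adjusted p = 5.49e-06), Mest 2.35-fold lower (-1.24, SE 0.12, edgeR adjusted p = 9.09e-06) and Plagl1 2.04-fold lower (-1.03, SE 0.13, edgeR adjusted p = 7.69e-05). Ndn (-0.82, SE 0.08) and Peg3 (-0.50, SE 0.06) were lower by less. The noncoding RNAs of chromosome 12 were higher, Rian 2.01-fold (1.01, SE 0.07, edgeR adjusted p = 8.4e-07) and Meg3 1.46-fold (0.54, SE 0.09, edgeR adjusted p = 0.000579). The values of the 2 strains did not overlap for any of the 9, as for 70.7% of the genes with a mean of at least 1 CPM, and H19 was the member that did not pass (-0.55, SE 0.47, edgeR adjusted p = 0.333). All 9 calls held when any library was left out, and that of Meg3 was lost in the model of all 27 libraries (0.50, edgeR adjusted p = 0.089). On the same day 7 of 12 connective tissue markers and 7 of 8 neural progenitor markers were lower in Cav1-null mice, with medians of -2.05 and -1.29, and 2 neuronal markers were higher and 5 lower. The part of these shifts in the member values was not tested.

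On d12 and d17 no member was called between Cav1-null and C57BL/6J mice. On d12 edgeR called 0 of 10 members and 0.0% of all genes, with 5 members at an unadjusted p under 0.05, beside 22.1% of all genes, and 2 called by DESeq2, beside 5.08%. Plagl1 came nearest on d12, at 176, 165 and 141 CPM against 214, 271 and 255 CPM (log2 fold change -0.59, SE 0.15, edgeR adjusted p = 0.107). On d17 edgeR called 0 of 10 members and 0.0491% of all genes, with 1 member at an unadjusted p under 0.05, Igf2, beside 7.55% of all genes, and 0 called by DESeq2, beside 0.145%. Leaving out C57BL/6J d17 replicate 2, which had the highest Meg3 and the lowest Dlk1 and Mest of its group, brought the count on d17 to 5 of 10 members and the share of all genes called to 13.6%.

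AKR/J and C57BL/6J differed in 1 member on d12, where 28.6% of all genes were called. Ndn was 2.24-fold lower in AKR/J, at 184, 93.4 and 177 CPM against 497, 366 and 257 CPM (log2 fold change -1.17, SE 0.34, edgeR adjusted p = 0.034). The call was lost without AKR/J d12 replicate 1, the library with reads of the Y chromosome (-1.34, edgeR adjusted p = 0.0718), and without AKR/J d12 replicate 3 or C57BL/6J d12 replicate 1 or 2. The neuronal markers were lower as well, 4 of 8 being called with a median of -1.18, and their part in the Ndn value was not tested. H19 was 2.49-fold higher in AKR/J on that day without passing (1.32, SE 0.46, edgeR adjusted p = 0.059). In these AKR/J libraries the yolk sac markers summed to 31.4 to 1698 CPM and the trophoblast and decidua markers to 35.3 to 766 CPM, against 4.96 to 6.79 and 1.86 to 78.8 CPM in C57BL/6J, and their part in the H19 value was not tested. H19 was called with DESeq2 (1.31, DESeq2 adjusted p = 0.00558), and without C57BL/6J d12 replicate 3 it was 3.76-fold higher (1.91, edgeR adjusted p = 0.0143). On d12, 4 members had an unadjusted p under 0.05, beside 42.6% of all genes. Without AKR/J d12 replicate 2 the count of members called was 4, beside 39.9% of all genes, and without C57BL/6J d12 replicate 3 it was 2, beside 28.1%. On d15, with 41.1% of all genes called, Rian was the single member called, at 869, 1059 and 924 CPM in AKR/J against 625, 639 and 736 CPM (0.58, SE 0.12, edgeR adjusted p = 0.0065), a call that was lost in the model of all 27 libraries (edgeR adjusted p = 0.105). Without AKR/J d15 replicate 2, Igf2 (-2.58, edgeR adjusted p = 0.0204), Peg3 (-0.42, edgeR adjusted p = 0.0193) and Plagl1 (-0.53, edgeR adjusted p = 0.0317) were called as well. The Igf2 difference with all libraries was -1.10, and without the high connective tissue library of both strains it was -1.67 (edgeR adjusted p = 0.00308). On d17 edgeR called 0 members and 0.742% of all genes, with 1 member, Igf2, at an unadjusted p under 0.05, beside 21.2% of all genes, and 1 called by DESeq2, beside 3.23%. AKR/J and Cav1-null mice were each compared with the same C57BL/6J libraries, so these results are not independent of each other.

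The other imprinted genes give the setting for these 10. Of 21 tested among 23 other paternally expressed genes, between 3 and 9 rose and between 2 and 4 fell in each change between days, while 7.08% to 14.8% of all genes rose and 5.58% to 14.0% fell. The largest called rise was in Rasgrf1, an exchange factor for Ras in neurons, in 5 of the 6 changes, with a log2 fold change of 4.63 (SE 0.43) from d12 to d15 of AKR/J, and the largest fall was in Peg12 in 5 of the 6, with -2.06 (SE 0.28) from d15 to d17 of AKR/J. Among the maternally expressed genes Cdkn1c, an inhibitor of the cell cycle that restrains growth, had the largest fall in 4 of the 6 changes, for example -1.79 (SE 0.28) between d12 and d15 in Cav1-null mice. The largest rises were in Kcnk9, a potassium channel, and Htr2a, a serotonin receptor. In the early phase of AKR/J, Phlda2, a placental growth restraint, had the largest fall (-4.71, SE 1.37), and on d12 it was 5.05 (SE 1.25) higher on the log2 scale in AKR/J than in C57BL/6J. The AKR/J libraries of d12 are those with high yolk sac and trophoblast markers, whose part in the Phlda2 value was not tested.

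Of 8 factors that maintain imprints, Uhrf1, which brings the maintenance methyltransferase to newly copied DNA, had the largest called fall in all 6 changes, from -0.80 (SE 0.15) in the early phase of C57BL/6J to -1.94 (SE 0.34) in its late phase. Zfp57, a zinc finger protein that protects imprints, rose in both phases of AKR/J (1.04, SE 0.21, and 0.42, SE 0.09) and between d12 and d15 in Cav1-null mice (0.56, SE 0.08). On d15, 2 of the 8 were higher in Cav1-null than in C57BL/6J mice (Zfp57 0.54, SE 0.06, and Zfp445) and the other 6 were lower, beside 26.8% and 31.8% of all genes, Uhrf1 by most (-1.87, SE 0.08). Their median was -0.50, beside 0.03 over all genes. Neural progenitor markers had a median sum of 1650 CPM in C57BL/6J and 1344 CPM in Cav1-null mice on d15. In the within-strain changes the progenitor sums given above moved as well. The part of these shifts in the values of Uhrf1 and the other factors was not tested.

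Most tested genes of the IGF pathway, in which Igf2 is a ligand and Grb10 a restraint, were lower on d15 in Cav1-null mice. Of 16 tested genes for the other ligand, receptors, binding proteins, substrates and RNA-binding proteins, 14 were lower and 0 higher, beside 31.8% and 26.8% of all genes, with a median of -1.06. On that day connective tissue markers had a median sum of 644 CPM in C57BL/6J and 136 CPM in Cav1-null mice, blood vessel markers 273 and 66.1 CPM and neural progenitor markers 1650 and 1344 CPM, and in the within-strain changes below the cartilage and connective tissue sums given above moved as well. Their part in the values of the list was not tested. The largest difference was in Irs2, a substrate of both receptors (-2.39, SE 0.09, edgeR adjusted p = 2.5e-08). In AKR/J against C57BL/6J on d15, 8 of 16 were lower and 1 was higher, beside 22.3% and 18.8% of all genes, again with Irs2 at the bottom (-1.68, SE 0.12). The AKR/J marker sums on d15 had medians of 150.5 CPM for connective tissue, 106 CPM for blood vessels and 1362 CPM for neural progenitors. Their part in this comparison was not tested either. Within strains 10 of 16 fell in the late phase of AKR/J, beside 10.4% of all genes (Igfbp4 at -1.26, SE 0.35), and 8 of 16 fell between d12 and d15 in Cav1-null mice, beside 11.8% of all genes (Igfbp4 at -1.27, SE 0.31). In C57BL/6J, 3 rose and 3 fell in the early phase, beside 7.08% and 7.8% of all genes, and 4 fell in the late phase, beside 5.58%, where the largest fall was in Igf2bp1, which binds Igf2 mRNA (-1.36, SE 0.11).

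The members were also set beside the 16448 genes with a mean of at least 1 CPM, by Spearman's rho of log2(CPM + 1) over the 27 libraries. These libraries share strain and day, so high values are common and are descriptions. Meg3 was closest to Pfkp (0.99), Rgs9 and A830073O21Rik, and Rian to Tmem106b (0.97), Zfp72 and Usp53. Mest and Plagl1 were both closest to Kif18b (0.97 each), a kinesin of the mitotic spindle, and the next for Mest were Aurkb and Gtse1, which act in mitosis, and for Plagl1 Fgfr2 and Uhrf1. Dlk1 was closest to Mest itself (0.95), then to Ldlrad3 and Grsf1. Grb10 was closest to Angptl2 (0.96), Nfatc3 and Syde1. Igf2 was closest to Creb3l2 (0.97), Ptpn14 and Svil, and H19 to Dnm3os (0.92), Gm15222 and Cthrc1. Ndn was closest to Klc1 (0.91), a light chain of the kinesin motor, then Tmem8b and Exoc7.

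Splice junction reads were deposited for the same 27 libraries, and they show which exons of Grb10 and Meg3 were joined. In the mouse, Grb10 is known to be transcribed from the maternal allele in most tissues through an upstream promoter and from the paternal allele in neurons through promoters inside the gene. The junctions of the upstream and of an internal first exon end at the same acceptor, and their sequences are shown because they tell the 2 transcript starts apart. The capitals mark the last 15 bases of the first exon and the small letters the first 15 bases of the exon they are joined to, on the reverse strand of chromosome 11 in GRCm39.
Grb10 upstream first exon, intron chr11:11937675-11987191: GGAGCTGCACGTCAGgacaaagtggggcag
Grb10 internal first exon, intron chr11:11937675-11976661: TGGGCTATAATGGGGgacaaagtggggcag

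The 200 bases before each of these exons are shown because the DNA methylation that carries imprints sits on CG pairs, which are in capitals. The upstream window holds 32 of them and the internal window 11, beside a median of 5 in the same span of 32851 RefSeq promoters of GRCm39, of which 1.77% and 31.7% hold as many. These are counts of letters, and methylation was not measured in the data used here. They do not show which window, if either, carries an imprint, and each window ends where its exon begins.
Before the upstream first exon, chr11:11987420-11987619, reverse strand: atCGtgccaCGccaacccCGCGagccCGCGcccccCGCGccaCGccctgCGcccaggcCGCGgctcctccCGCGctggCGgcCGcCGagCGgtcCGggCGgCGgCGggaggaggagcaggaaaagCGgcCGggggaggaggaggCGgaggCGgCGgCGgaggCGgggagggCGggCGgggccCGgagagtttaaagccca
Before the internal first exon, chr11:11976733-11976932, reverse strand: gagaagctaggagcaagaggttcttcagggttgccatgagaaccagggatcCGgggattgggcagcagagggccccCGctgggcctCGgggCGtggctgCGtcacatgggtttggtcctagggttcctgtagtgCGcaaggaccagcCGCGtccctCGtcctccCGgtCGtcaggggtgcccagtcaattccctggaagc

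While the Grb10 count fell, the internal junction rose relative to the rest of the gene. Reads over the internal junction were counted per 100 reads of a junction in the body of the gene (chr11:11896803-11901502), a measure chosen after seeing the data. On d12 the 9 libraries had a lowest value of 0, a median of 0.364 and a highest value of 2.49, on d15 the values were 2.38, 4.17 and 16.4, and on d17 they were 7.32, 12.0 and 28.6. No d17 library overlapped a d12 library, and the means of 0.801 and 13.9 differed with an exact permutation p of 0.00025, two-sided with strains as strata and the smallest that 8000 relabelings can give (n = 9 and 9). On d15 the Cav1-null libraries had 16.4, 10.4 and 8.86, above the 2.91, 3.02 and 4.74 of C57BL/6J and the 4.17, 2.38 and 3.33 of AKR/J. The internal junction held 10, 7 and 7 reads in these Cav1-null libraries and 12, 8 and 10 in those of C57BL/6J, and the body junction 61 to 79 and 211 to 412, so the ratios differ through the body junction. With 3 libraries a group this order was not tested further. The internal junction itself held 0 to 10 reads per library on d12 and 5 to 16 on d17, while the body junction went from 124 to 493 reads down to 54 to 89, so the rise in the ratio comes with a fall in its denominator. The upstream junction is listed at 0 in some libraries and at up to 395 reads in others, and such a 0 can stand for reads that the authors removed. Among the libraries with upstream reads, the internal share of both junctions had a mean of 0.264% on d12 (n = 5) and 18.9% on d17 (n = 6). This share was also chosen after seeing the data and holds the same internal reads, so it is a description and no separate support.

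In Meg3 the junctions shown are those whose balance changed over the days. The capitals mark the exon that differs and the small letters the shared exon for the middle and distal junctions, and for the proximal junction the capitals mark the exon downstream, all on the forward strand of chromosome 12.
Meg3 proximal, intron chr12:109512426-109516087: acggctctcgctcagCTGGCATTGCCCACC
Meg3 middle, intron chr12:109516246-109537824: CCCTCCTGGATTAGGcctctacagccacgg
Meg3 distal, intron chr12:109524755-109537824: CTCCAACTGTAAATCcctctacagccacgg
The middle and distal junctions share their acceptor, and the share of the middle junction had a lowest value of 1.80%, a median of 2.75% and a highest value of 3.97% on d12, and of 4.94%, 6.22% and 6.77% on d17. It rose by 3.19 percentage points from a mean of 2.80% to 5.98% (exact permutation p = 0.00025, adjusted p = 0.00255 over 1143 junctions). This was among 2 of the 6 member junctions tested that were called between d12 and d17, beside 29.7% of all junctions tested. The other was the Rian junction chr12:109593588-109600709, whose share among the 3 junctions of its donor with reads in every library fell by 9.65 percentage points, from a mean of 25.9% to 16.2% (exact permutation p = 0.001, adjusted p = 0.00639). Over all 6 listed junctions of this donor, of which 3 are at 0 in some libraries, the share went from a mean of 24.5% to 15.6% (exact permutation p = 0.005). Over the 4 listed junctions of the Meg3 acceptor it went from 2.79% to 5.95% (exact permutation p = 0.00025). Both were computed after seeing the data. The values of the Rian share overlapped, among the 3 junctions with 15.8% to 36.5% on d12 and 12.0% to 21.7% on d17.

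The reads of the proximal Meg3 junction per 100 reads of the distal junction, also chosen after seeing the data, had a median of 4.04 and a range of 1.31 to 7.91 on d12, and a median of 15.2 and a range of 10.8 to 21.5 on d17. The means of 3.60 and 15.6 differed with an exact permutation p of 0.00025 (n = 9 and 9). The distal junction per 1000 Meg3 gene reads fell from a mean of 31.3 to 7.45 (exact permutation p = 0.00025), while the proximal junction went from 0.959 to 1.14 (exact permutation p = 0.246). Both of these measures were also chosen after seeing the data. Their denominator is the Meg3 count, whose rise is given above, so they are descriptions and no separate support. In reads per 1000000 reads of the library, the distal junction ran from 24.8 to 73.2 on d12 and from 41.1 to 62.6 on d17, ranges that overlap, and the proximal junction from 0.476 to 3.11 on d12 and from 4.43 to 12.2 on d17, with no overlap. Without C57BL/6J d12 replicate 2 the difference in proximal reads per 1000 Meg3 gene reads had an exact permutation p of 0.0485. The distal junction per gene read thus fell as the Meg3 count rose. Between strains, the exact permutation test called 0 of the 6 member junctions for AKR/J against C57BL/6J, beside 4.29% of all junctions, and 0 for Cav1-null against C57BL/6J, beside 0.0%, and 0 of the 6 had an unadjusted p under 0.05 in either.

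**Figure D4:**
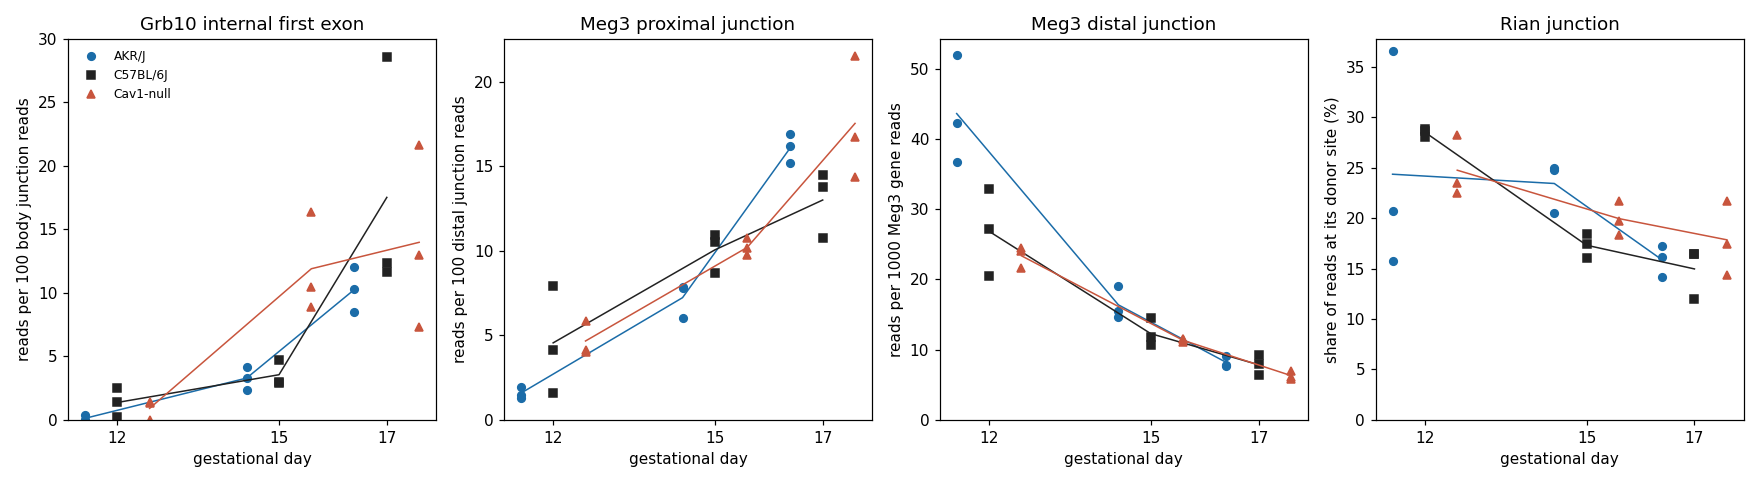
Splice junctions of Grb10 and Meg3 by gestational day, with 1 point per library and the strains shifted sideways around each day. Lines join the means of the 3 libraries of a group. The panels give the Grb10 internal junction per 100 body junction reads, the Meg3 proximal junction per 100 distal reads, the Meg3 distal junction per 1000 gene reads and the share of the Rian junction at its donor in percent. The d17 libraries lie above all d12 libraries for the Grb10 ratio and the Meg3 proximal to distal ratio, and below them for the distal junction per gene read.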

How the data were processed

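Unnormalized read counts per Ensembl gene and read counts per splice junction were deposited for 27 fetal brain libraries. Per the labels and the study's methods, the authors used FastQC, cutadapt, fastp and STAR with GRCm39; the counting tool, its use of strand and the versions are not given in the sources used here. The authors removed junctions with multi-mapped, short-overhang or few reads, so a junction 0 can be a removed value. Gene positions are those of GENCODE on GRCm39.

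Each comparison of 2 groups was fitted on its 6 libraries, and each interaction on 12, in R 4.3.3 with edgeR 4.0.16 (filterByExpr, TMM, quasi-likelihood test, Benjamini-Hochberg adjustment over all genes tested). The SE was taken as the size of the log2 fold change divided by the root of the F statistic. Junction shares, over the junctions of a site with reads in every library and at least 20 reads in each, were compared by exact permutation within strata. DESeq2 1.42.0 and the other alternatives are in the closing section. The scripts were tested on simulated data. Python 3.11.15 was used for tables and plots.

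The members and gene lists were chosen with earlier results of these data known. Named beside the members are, per list and comparison, the called genes with the largest rise and fall, Cav1 as a label check, and the 3 genes closest to each member, which for Peg3 are not reported here. Genes at the end of a junction, of an overlap or of a sex check, and Zfp57 and Zfp445 on d15, were named after their values were seen. Replicates differed beyond counting noise (chi-square per degree of freedom at least 5.53), so none was counted as a copy.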

Additional observations from a re-analysis of the deposited data

How the results depend on the processing

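No called log2 fold change of a member changed sign under any alternative: DESeq2, RLE size factors, library sizes alone, no filter on low counts, 1 model of all 27 libraries, the replicate block, each library left out, and, chosen after seeing the data, the 4 libraries with high connective tissue markers left out. Counts of members called moved more. Each count is followed by the share of all genes called in the same fit, which moved too, so a count by itself is no result about the members. Between d12 and d15, the count in AKR/J was 4 (21.7%) without the high connective tissue libraries in place of 2 (28.9%). In C57BL/6J it was 3 (12.9%) with DESeq2, 2 (8.71%) without the filter, 2 (16.3%) in the model of all libraries, 0 (0.0248%) with the replicate block and 0 (0.0303%) without the high connective tissue libraries in place of 1 (14.9%). From d15 to d17 in Cav1-null mice it was 2 (3.56%) in the model of all libraries in place of 7 (27.3%). For AKR/J against C57BL/6J on d12 it was 4 (19%) with DESeq2, 2 (23.4%) with library sizes alone, 2 (18.2%) without the filter, 3 (47.0%) in the model of all libraries and 3 (32.2%) with the replicate block in place of 1 (28.6%). On d15 it was 0 (22.5%) in the model of all libraries and 4 (34.1%) without the high connective tissue libraries in place of 1 (41.1%), and on d17 1 (3.23%) with DESeq2 and 1 (2.51%) without the filter in place of 0 (0.742%). For Cav1-null against C57BL/6J on d12 it was 2 (5.08%) with DESeq2 and 1 (7.44%) in the model of all libraries in place of 0 (0.0%). For the interactions, in place of 0, AKR/J gave 1 in the early phase with DESeq2 (2.42%), with library sizes alone (0.507%) and in the model of all libraries (7.12%). Cav1-null mice gave 3 (1.14%) with DESeq2 and 1 (0.122%) without the filter in the early phase, and 3 (3.32%), 3 (2.61%) and 7 (22.6%) with DESeq2, without the filter and without the high connective tissue libraries in the late phase. The cause of these moves was not tested.

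With each library left out in turn, the counts ran from 1 to 4 (12.4% to 43.5% of all genes) and 5 to 7 (7.58% to 23.3%) in the early and late phases of AKR/J, from 0 to 2 (0.0% to 29.8%) and 0 to 7 (0.767% to 33.2%) in C57BL/6J and from 5 to 6 (11.2% to 35.9%) and 6 to 8 (18.9% to 25.5%) in Cav1-null mice. Against C57BL/6J on d12, d15 and d17 they ran from 0 to 4 (0.122% to 39.9%), 1 to 4 (28.2% to 37.9%) and 0 to 1 (0.258% to 26.4%) in AKR/J, and were 0 (0.0% to 7.37%), 9 (49.8% to 53.7%) and 0 to 5 (0.00946% to 13.6%) in Cav1-null mice. The early and late interactions gave 0 to 1 (0.0135% to 14.8%) and 0 (0.00449% to 3.7%) in AKR/J and 0 to 2 (0.00451% to 7.3%) and 0 to 7 (0.0% to 26.1%) in Cav1-null mice. Without AKR/J d12 replicate 2 the early AKR/J interaction gave 1. Without C57BL/6J d12 replicate 2, that of Cav1-null mice gave 2. The junction counts were 2 to 4 between days, 4 without Cav1-null d17 replicate 2, and 0 between strains.

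Same-numbered replicates were not treated as pairs: their correlations over 36 pairs of libraries were -0.43 to 0.36, with 8 above 0.1. The study's methods name no pairing, so the replicate block shares only a number. It lost 3 of the 27 day calls and gained 1. The depth of 26363697 reads or more gave all members reads in every library, and the 3 libraries a group limit the precision.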
